A study of Mus musculus with 53 samples.

Results

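The genes described here are the thrombospondins Thbs1, Thbs2, Thbs3 and Thbs4 and 6 other secreted matrix genes: Postn, Tnc, Sparc, Fn1, Fbn1 and Lox. They were taken by symbol from a table of 34306 mouse genes, and 10 of 10 were found, each read in every library. They were picked by name with earlier results of these data known, and by no rule on their values. Matricellular proteins are secreted proteins that bind collagen, fibronectin, growth factors and cell surface receptors and tune how cells attach to the matrix, rather than forming its main load-bearing fibres. Thrombospondins are calcium-binding glycoproteins, of which Thbs1 and Thbs2 form trimers and Thbs3 and Thbs4 form pentamers. Most of these genes are low in the uninjured adult heart and are known to be expressed more after injury, inflammation or mechanical load, largely by fibroblasts, vascular cells and macrophages, and Thbs4 also by cardiac muscle cells.

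RNA was sequenced from adult mouse hearts as a pair of fractions, TRAP and input. TRAP (translating ribosome affinity purification) is the RNA recovered with a tagged ribosome that Cre recombinase switches on, and input is the total cytoplasmic RNA. The tag is in every lineage of CAG hearts and in the endothelium of Tie2 hearts, going by the first deposit's labels for these lines. Tie2 drives Cre also in blood-forming cells, as background, so a Tie2 library need not hold endothelial RNA alone. The groups were CAG band TRAP, CAG band input, CAG sham TRAP and CAG sham input with 2 libraries each, and CAG TRAP, CAG input, Tie2 TRAP and Tie2 input without surgery with 1 library each. Band means that the ascending aorta was tied, which loads the left ventricle with pressure, and sham is the same operation with no ligature; operated mice were male. The mixed 129 and C57BL background is given for the first deposit only. The time after surgery, the exact age and the number of hearts behind a library are not given in the sources used here. RNA was pooled. Whether the pair of libraries in a group comes from different mice is not said, so the p-values reflect how far such pairs spread, which can be a technical spread.

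The 12 libraries held 26568988 to 94878619 reads. Heart muscle markers were present in all of them, and their summed level was 2495 RPKM in Tie2 TRAP RNA against 29199 to 40000 RPKM in the other libraries. RPKM counts reads for each kilobase of a transcript and is scaled to the depth of the library, so that levels can be set side by side between genes. Of the pairs of libraries, the band TRAP pair differed most, by a median of 0.20 on the log2 scale, against 0.08 to 0.11 in the other pairs. Endothelial markers summed to 1679 RPKM in band TRAP library 1 and to 843 RPKM in band TRAP library 2. Of these sums Fabp4 alone made up 1603 and 785 RPKM. In the same libraries Pecam1 was read at 18.9 and 16.4, Cdh5 at 14.8 and 12.8 and Tie1 at 9.85 and 9.92 RPKM. Cav1, at 26.1 and 15.5, Kdr, at 3.61 and 2.32, and Tek, at 2.79 and 1.61 RPKM, were further apart. Results that use the band TRAP pair are given with and without its libraries. In RNA from whole hearts, fewer cells of a type and less RNA per cell cannot be told apart.

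Promoter sequences are shown for Tnc and Thbs4, which were higher after banding, and for Thbs2, whose values lay lower. They were read from RefSeq for the build GRCm38.p6, which is not the build of the deposited table, and run 5′ to 3′ in the direction of the gene from 250 bases before the start of transcription to 50 bases after it. Capitals mark matches, on either strand, to the TATA box TATAAA, the CCAAT box CCAAT, the GC box GGGCGG or the TEAD motif GGAATG. The Tnc window is chr4:64046966-64047265 on the minus strand and is the first of 2 windows listed for this gene; the Thbs4 window is chr13:92794769-92795068 on the minus strand; the Thbs2 window is chr17:14694213-14694512 on the minus strand.
Tnc: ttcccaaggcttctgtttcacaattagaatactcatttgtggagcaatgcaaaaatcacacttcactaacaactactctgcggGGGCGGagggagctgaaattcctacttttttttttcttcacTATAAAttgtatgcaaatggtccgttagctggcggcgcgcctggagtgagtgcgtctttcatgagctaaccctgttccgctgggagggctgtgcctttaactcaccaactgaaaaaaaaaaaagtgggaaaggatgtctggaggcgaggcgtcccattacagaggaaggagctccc
Thbs4: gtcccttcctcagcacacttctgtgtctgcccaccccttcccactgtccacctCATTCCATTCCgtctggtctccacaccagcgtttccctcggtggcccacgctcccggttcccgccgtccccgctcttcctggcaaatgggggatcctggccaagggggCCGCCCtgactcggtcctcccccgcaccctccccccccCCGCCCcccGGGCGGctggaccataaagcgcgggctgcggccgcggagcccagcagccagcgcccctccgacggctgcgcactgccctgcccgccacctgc
Thbs2: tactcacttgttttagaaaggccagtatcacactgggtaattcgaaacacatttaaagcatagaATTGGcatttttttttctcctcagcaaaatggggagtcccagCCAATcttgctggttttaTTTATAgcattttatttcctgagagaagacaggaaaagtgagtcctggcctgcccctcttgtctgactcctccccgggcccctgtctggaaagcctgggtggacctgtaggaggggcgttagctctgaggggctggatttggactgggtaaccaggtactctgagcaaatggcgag
The Tnc window held 1 GC box, starting at base -167 from the start of transcription, and 1 TATA box, starting at base -126. The GC-rich Thbs4 window (72.0% G or C) held 3 GC boxes, starting at bases -89, -51 and -42, and a pair of TEAD motifs that overlap by 1 base and start at bases -197 and -192. The Thbs2 window (48.3% G or C) held a pair of CCAAT boxes, starting at bases -186 and -144, and a TATA box on the opposite strand, starting at base -126. Of 32851 promoter windows of the same length, 13.62% held the TATA box, 37.41% the CCAAT box, 35.66% the GC box and 14.66% the TEAD motif. The AP-1 motif TGANTCA, present in 7.81% of windows, and the CArG box, present in 1.63%, were not matched in these 3 windows. A match is a description of the letters and not a site of binding. Windows were kept for 7 of the 10 genes, and any on 1 chromosome were left out.

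The first question was which of these genes changed in the heart under pressure load. After banding, Thbs1, Tnc, Thbs4 and Fn1 rose in total cytoplasmic RNA, and Thbs1 and Thbs4 rose in ribosome-bound RNA as well. On the RPKM scale the largest ratios were those of Tnc and Thbs1, both of which were read at well under 1 RPKM after sham surgery. Sparc, the most abundant of the 10 genes by far, was at nearly the same level in band and sham hearts. Thbs2 lay lower in band than in sham hearts in both fractions, a difference that did not pass the test. Genes were tested with limma on log2(RPKM + 1) over the 11654 genes that reached 1 RPKM in 2 or more libraries, and a gene was called at a Benjamini-Hochberg adjusted p under 0.05. Differences on this scale understate the change of genes near or under 1 RPKM.

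**Figure D1:**
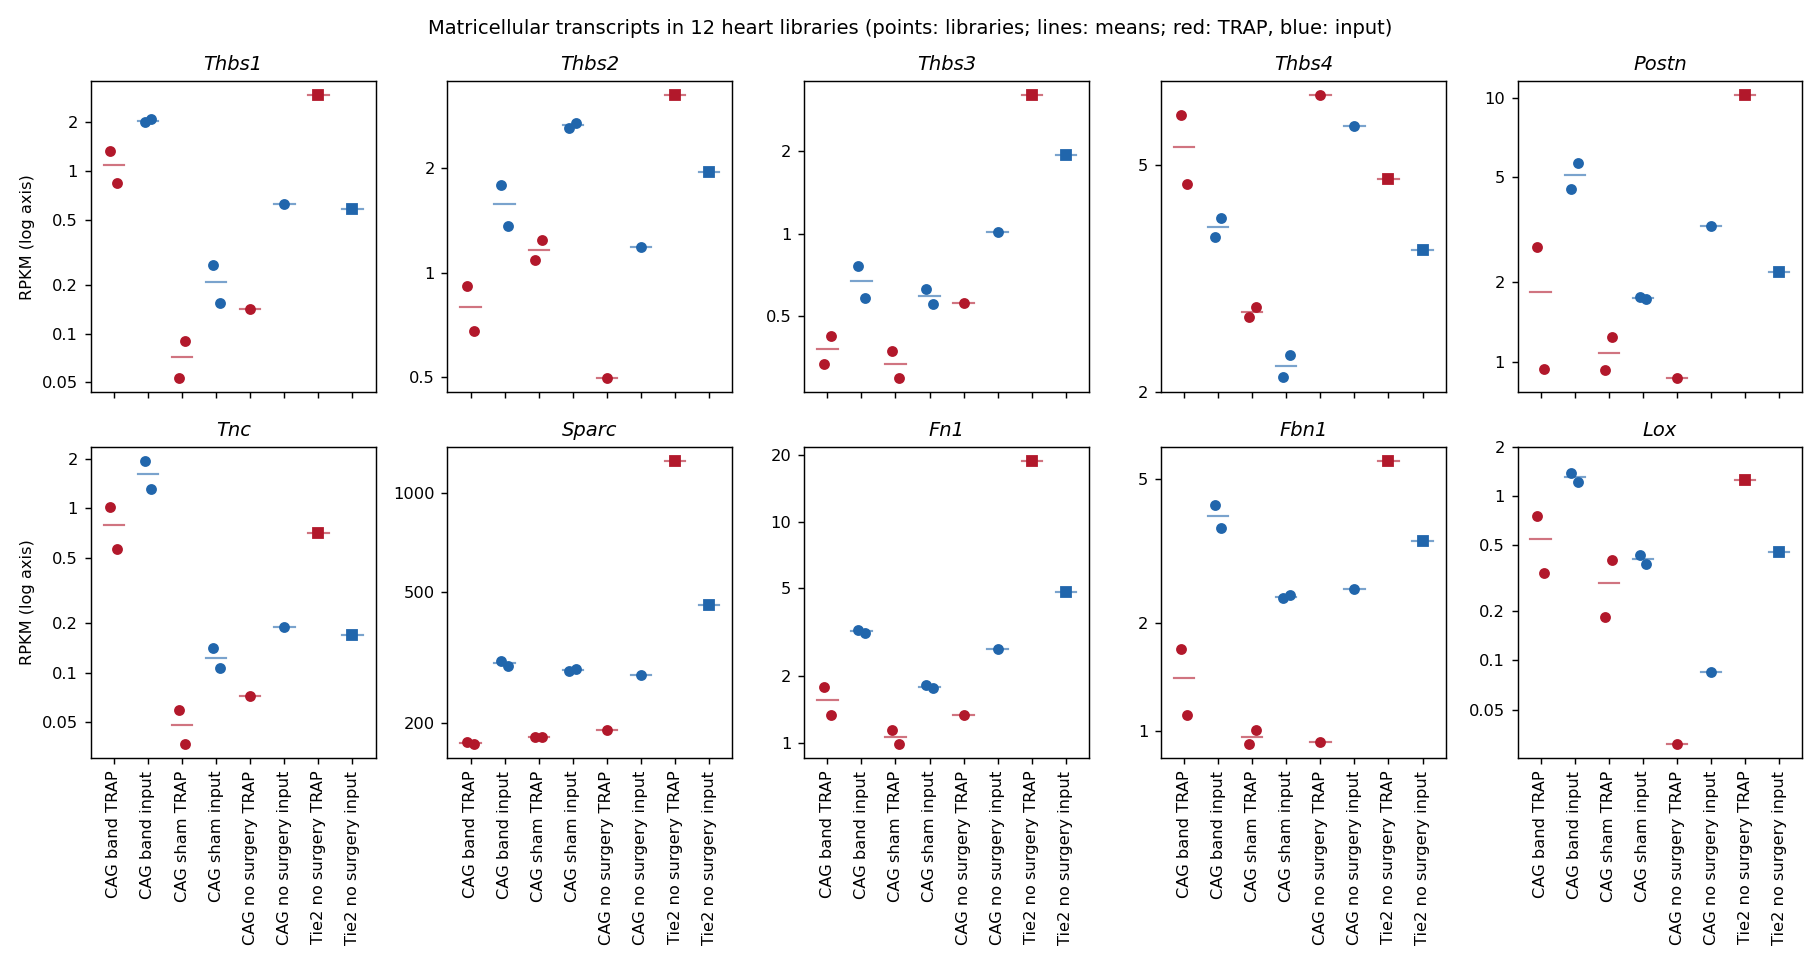
RPKM of the 10 genes in each of the 12 libraries, on a log axis, with 1 point per library and groups of 2 libraries or 1 library side by side. Thbs1 and Tnc stand between 0.565 and 2.10 RPKM in the band libraries and between 0.0370 and 0.262 RPKM in the sham libraries.

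Thbs1 (transcript ENSMUST00000039559, 5848 bases), a trimeric thrombospondin known to activate latent TGF-beta and to bind the receptors Cd36 and Cd47, was read at 2.00 and 2.10 RPKM in band input libraries and at 0.262 and 0.155 RPKM in sham input libraries. In TRAP RNA it stood at 1.34 and 0.844 RPKM after banding and at 0.0531 and 0.0900 RPKM after sham surgery. Both band libraries were above both sham libraries in each fraction. The ratio of mean RPKM, band over sham, was 9.81 in input RNA and 15.3 in TRAP RNA. On the log2(RPKM + 1) scale the rise was 1.34 in input RNA (SE 0.13, limma adjusted p = 0.00515) and 0.95 in TRAP RNA (SE 0.13, limma adjusted p = 0.0129). The band TRAP values rest on 297 and 235 reads and the sham TRAP values on 11 and 22 reads, with 95% Poisson intervals in the sham libraries of 0.0265 to 0.0950 RPKM and 0.0564 to 0.136 RPKM. Such intervals cover counting error only. Leaving out a library lost the call of Thbs1 in input RNA without sham input 2 (adjusted p = 0.0795), band input 1 (adjusted p = 0.0501) or band input 2 (adjusted p = 0.0600), and in TRAP RNA without sham TRAP 1 (adjusted p = 0.119) or sham TRAP 2 (adjusted p = 0.115). The difference stayed between 1.27 and 1.40 in input RNA and between 0.78 and 1.13 in TRAP RNA over the 8 such fits.

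Thbs4 (ENSMUST00000022213, 3198 bases), a pentameric thrombospondin that in mouse heart muscle cells acts in the endoplasmic reticulum stress response, was the most abundant of the 4 thrombospondins in every library but those of sham input. It was read at 3.75 and 4.04 RPKM in band input libraries, against 2.12 and 2.33 RPKM in sham input libraries. In TRAP RNA its level was 6.12 and 4.64 RPKM after banding, against 2.71 and 2.82 RPKM after sham surgery. The groups did not overlap in either fraction, and the ratio of means was 1.75 in input RNA and 1.95 in TRAP RNA. The rise was 0.60 in input RNA (SE 0.12, limma adjusted p = 0.0468) and 0.75 in TRAP RNA (SE 0.12, limma adjusted p = 0.0248). These calls lie near the threshold: of the 8 fits that leave out 1 library, each of the 6 without a sham library or a band input library lost the call in input RNA (adjusted p = 0.110 to 0.293) and in TRAP RNA (adjusted p = 0.0635 to 0.176). The 2 unoperated CAG libraries, with 6.63 RPKM (TRAP) and 5.86 RPKM (input), stood at or above the level of the band libraries of the same fraction.

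Thbs2 (ENSMUST00000170872, 5922 bases), the other trimeric thrombospondin, known to limit blood vessel growth, was read at 1.79 and 1.36 RPKM in band input libraries and at 2.62 and 2.69 RPKM in sham input libraries. In TRAP RNA the values were 0.912 and 0.678 RPKM after banding and 1.09 and 1.24 RPKM after sham surgery. Every band library was below every sham library of its fraction. The difference was -0.51 in input RNA (SE 0.12, limma adjusted p = 0.0674) and -0.27 in TRAP RNA (SE 0.12, limma adjusted p = 0.269), so neither passed. Thbs3 (ENSMUST00000126315, 4034 bases), a pentameric relative of Thbs4, was read at 0.762 and 0.583 RPKM in band input and 0.629 and 0.555 RPKM in sham input libraries, and its groups overlapped in both fractions. Its difference was 0.07 in input RNA, with a 95% interval of -0.17 to 0.31, and 0.05 in TRAP RNA, with an interval of -0.19 to 0.29.

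The make-up of the summed RPKM of the 4 thrombospondins differed between the groups. Thbs1 held 24.1% and 26.0% of the sum in band input libraries, against 4.66% and 2.71% in sham input libraries. Thbs2 held 21.6% and 16.9% in band input libraries, against 46.4% and 47.0% in sham input libraries. Thus Thbs2 was the leading thrombospondin in input RNA after sham surgery and Thbs4 was the leading one after banding. In TRAP RNA, Thbs4 held 70.3% and 70.5% of the sum after banding and 64.2% and 63.4% after sham surgery. These shares are descriptions and were not tested.

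**Figure D2:**
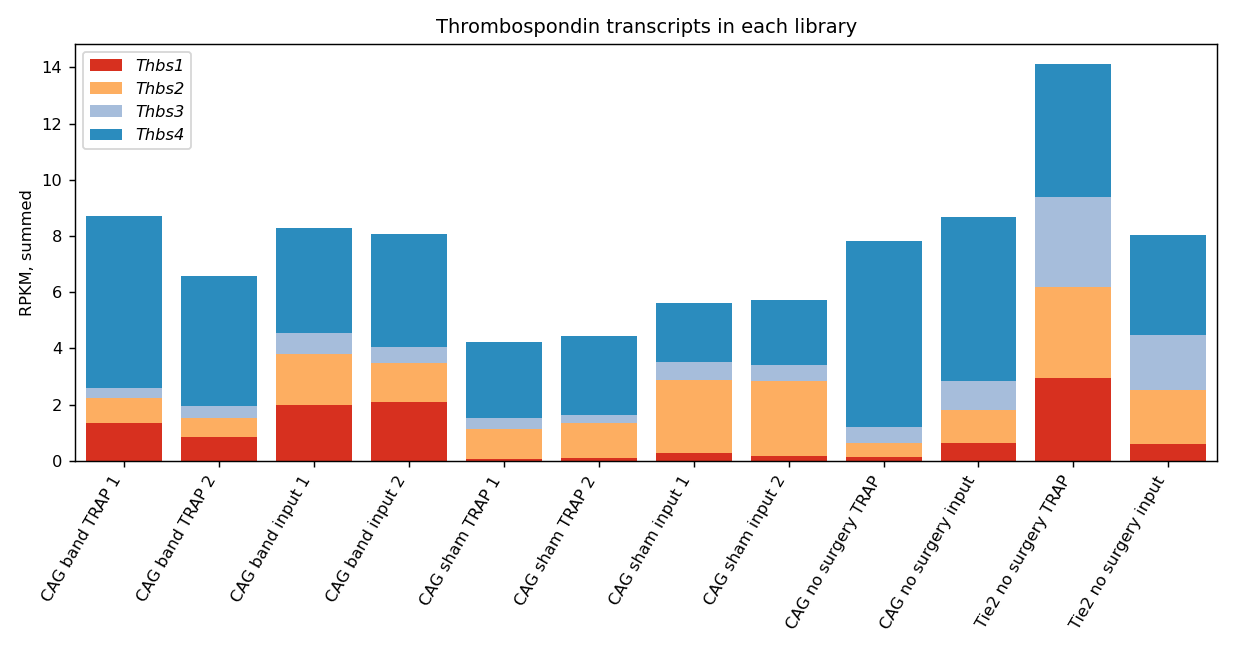
RPKM of Thbs1, Thbs2, Thbs3 and Thbs4 stacked to their sum, 1 bar per library, on an axis from 0. The Thbs1 part of the bar is 2.00 and 2.10 RPKM in the band input libraries and 0.262 and 0.155 RPKM in the sham input libraries.

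Tnc (ENSMUST00000107372, 7106 bases), tenascin C, a large glycoprotein known to appear at sites of wound repair and inflammation, was read at 1.95 and 1.31 RPKM in band input libraries and at 0.141 and 0.106 RPKM in sham input libraries. In TRAP RNA its level was 1.02 and 0.565 RPKM after banding and 0.0596 and 0.0370 RPKM after sham surgery. The groups were far apart in both fractions, with a ratio of means of 13.2 in input RNA and 16.4 in TRAP RNA. The rise in input RNA was 1.22 (SE 0.16, limma adjusted p = 0.0134), and the difference of 0.76 in TRAP RNA did not pass (SE 0.16, limma adjusted p = 0.0524). The sham TRAP values rest on 15 and 11 reads, with 95% Poisson intervals of 0.0334 to 0.0983 RPKM and 0.0185 to 0.0662 RPKM. With a pseudocount of 0.1 RPKM in place of 1, the TRAP difference was 2.54 and passed (limma adjusted p = 0.0213), as it did with limma voom on the recovered reads (adjusted p = 0.0194). The gene 8030451A03Rik overlaps Tnc, and strand was not marked, but it was read at no more than 0.0197 RPKM in any library. In input RNA the call of Tnc was lost without sham input 1 (adjusted p = 0.112), sham input 2 (adjusted p = 0.137), band input 1 (adjusted p = 0.0967) or band input 2 (adjusted p = 0.0557).

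Postn (ENSMUST00000145036, 4357 bases), periostin, a matricellular protein known as a marker of activated fibroblasts, was read at 4.53 and 5.65 RPKM in band input libraries and at 1.76 and 1.73 RPKM in sham input libraries. The ratio of means was 2.92 with no overlap, and the difference of 1.14 did not pass (SE 0.28, limma adjusted p = 0.0768). The estimate of spread is shared by all groups, and for Postn the band TRAP pair, at 2.72 and 0.936 RPKM, was the widest. Without band TRAP library 1 the adjusted p in input RNA was 0.00249, and without band TRAP library 2 it was 0.00250. In TRAP RNA the band libraries overlapped the sham libraries, which were at 0.927 and 1.23 RPKM. Its difference in TRAP RNA was 0.37 (limma adjusted p = 0.537), -0.10 without band TRAP library 1 and 0.84 without band TRAP library 2.

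Sparc (ENSMUST00000018737, 2300 bases), also called osteonectin, a collagen-binding matricellular protein, was read at 308 and 298 RPKM in band input libraries and at 287 and 290 RPKM in sham input libraries. In TRAP RNA it was read at 175 and 172 RPKM after banding and at 181 and 181 RPKM after sham surgery. Band and sham libraries did not overlap in either fraction, at a ratio of means of 1.05 in input RNA and 0.958 in TRAP RNA. The differences of Sparc were 0.07 in input RNA, with a 95% interval of -0.10 to 0.24, and -0.06 in TRAP RNA, with an interval of -0.23 to 0.11. Sparc made up most of the summed level of the 10 genes, which was 332 and 321 RPKM in band input and 299 and 303 RPKM in sham input libraries.

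Among the genes of fibres and their crosslinking, Fn1 (ENSMUST00000055226, 8312 bases), fibronectin, was read at 3.26 and 3.13 RPKM in band input libraries and at 1.82 and 1.76 RPKM in sham input libraries. It rose by 0.59 (SE 0.11, limma adjusted p = 0.034), a call lost in each of the 6 fits without a sham library or a band input library (adjusted p = 0.0814 to 0.247). Fbn1 (ENSMUST00000103234, 11971 bases), fibrillin 1, which forms the microfibrils that hold latent TGF-beta, was read at 4.23 and 3.66 RPKM in band input and at 2.34 and 2.38 RPKM in sham input libraries. Lox (ENSMUST00000171470, 4468 bases), lysyl oxidase, which crosslinks collagen and elastin, was read at 1.39 and 1.23 RPKM in band input and at 0.435 and 0.386 RPKM in sham input libraries. Neither passed, at a difference of 0.56 for Fbn1 (limma adjusted p = 0.0719) and 0.71 for Lox (limma adjusted p = 0.0555). Band and sham input libraries did not overlap for either gene, nor did they for Sparc, whose ratio of means was 1.05. The share of all genes with no such overlap was not counted, so a lack of overlap is not read as support. In TRAP RNA the differences were 0.31 for Fn1 (adjusted p = 0.179), 0.28 for Fbn1 (adjusted p = 0.305) and 0.25 for Lox (adjusted p = 0.440).

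In all, 4 of the 10 genes were called higher and 0 lower in input RNA, where 2.44% of all 11654 genes were called higher and 1.65% lower. In TRAP RNA 2 of the 10 were called higher and 0 lower, where 2.21% of all genes were called higher and 1.56% lower. Thbs1, Tnc and Lox reached the filter on low values only with band libraries, so a difference in favour of band is built into their being tested, and the counts are not read as support. Of the other 7 genes, 2 were called higher in input RNA (Thbs4 and Fn1) and 1 in TRAP RNA (Thbs4). With no filter on low values, Thbs1 (limma adjusted p = 0.0239) and Tnc (limma adjusted p = 0.0434) were still called in input RNA, and none of the 10 was called in TRAP RNA. Quantile normalization, and likewise removing each library's trend over transcript length, called 8 of the 10 in input RNA, with Thbs2 lower (limma adjusted p = 0.0303 and 0.0395) and the other 7 higher; of all 11654 genes these fits called 591 and 458, against 476. In TRAP RNA the differences of Thbs1 and Thbs4 stayed above 0 with either band TRAP library left out. Without band TRAP library 2, which leaves 1 library in that group, the differences were 0.84 for Postn, 0.94 for Tnc, 0.44 for Fn1 and 0.46 for Fbn1. Without band TRAP library 1, that of Postn was -0.10. Markers of other cells were set beside these changes. Macrophage and leukocyte markers summed to 502 and 408 RPKM in band input and to 377 and 377 RPKM in sham input libraries, with 2 of 7 tested called higher. Fibroblast markers summed to 320 and 291 RPKM in band input and to 343 and 340 RPKM in sham input libraries, with 1 of 10 called higher and 1 lower. Pf4 rose in TRAP RNA by 0.85 (limma adjusted p = 0.0222). It was the 1 tested of 7 platelet and megakaryocyte markers, and the others did not reach the filter on low values. The smooth muscle marker Tagln rose in input RNA by 1.27 (limma adjusted p = 0.0222), 1 of 7 on its list. Erythroid markers were called lower for 1 of 4 in input RNA and 3 of 4 in TRAP RNA, and epicardial markers for 1 of 4 in each fraction. Of the heart muscle markers 1 of 6, Actc1, was called higher in each fraction, and 0 of the 7 endothelial markers were called by limma in either. The part of these cells in the changes of the 10 genes was not tested.

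**Figure D3:**
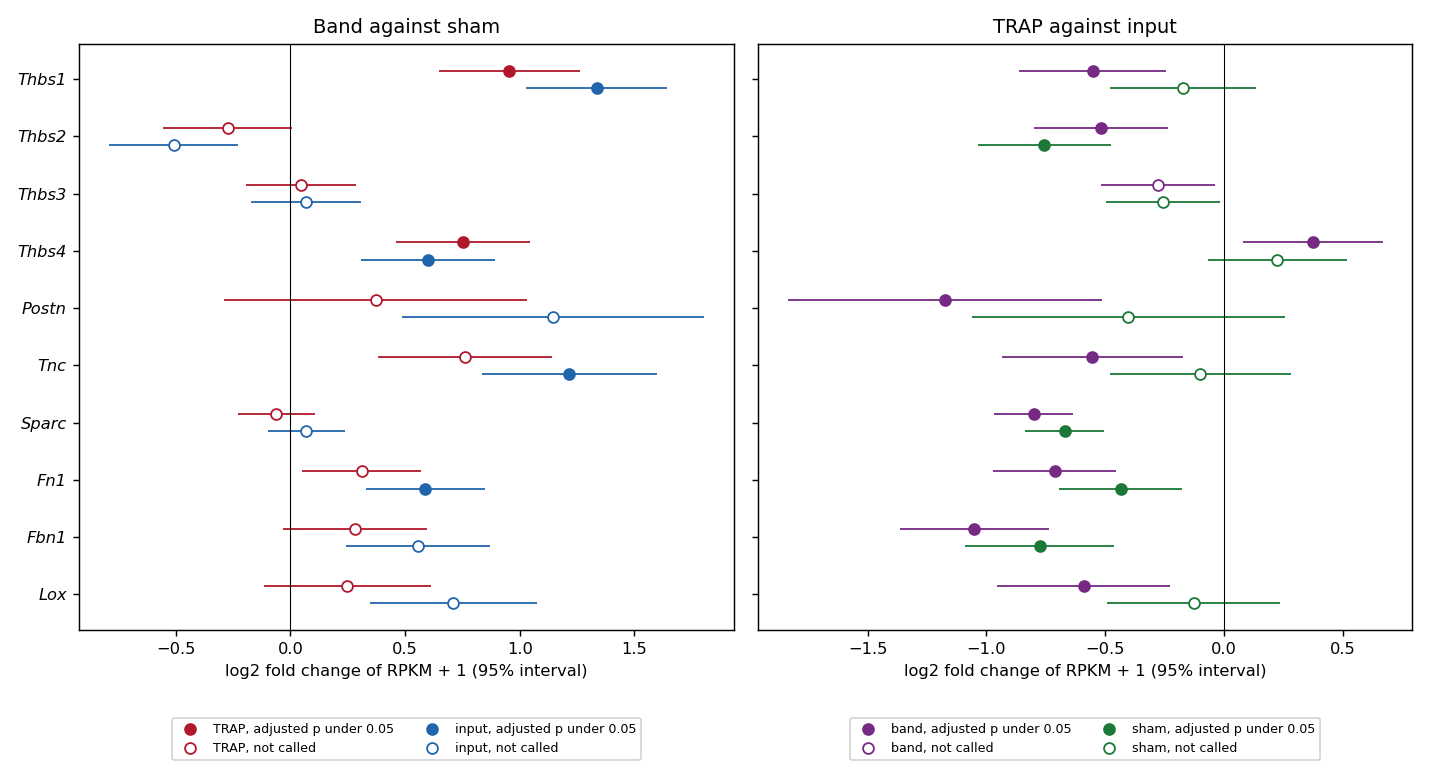
Differences of the 10 genes on the log2(RPKM + 1) scale with 95% intervals from limma that are not adjusted for the number of genes, 1 row per gene and filled points for genes called at an adjusted p under 0.05, for band against sham and for TRAP against input. In band against sham, Thbs1 is at 1.34 in input RNA and 0.95 in TRAP RNA, and Sparc is close to 0 in both.

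The second question was how these transcripts were divided between ribosome-bound and total RNA. In CAG hearts most of them were lower in TRAP than in input RNA, and Thbs4 was the exception; with quantile normalization Thbs3 stood higher in TRAP RNA in both operated conditions, and Thbs1, Tnc and Lox after sham surgery. With each library's trend over transcript length removed, Thbs1, Tnc, Fn1 and Lox stood higher in TRAP RNA after sham surgery. After banding, Thbs1, Thbs2, Postn, Tnc, Sparc, Fn1, Fbn1 and Lox fell in TRAP against input RNA and Thbs4 rose. After sham surgery, Thbs2, Sparc, Fn1 and Fbn1 fell, and the other 6 genes did not pass. The counts were 1 higher and 8 lower of 10 after banding, where 16.6% of all genes were called higher and 26.0% lower, and 0 higher and 4 lower of 10 after sham surgery, where 15.1% were called higher and 24.5% lower. The median difference of the 10 genes was -0.57 after banding and -0.33 after sham surgery, against -0.10 and -0.09 over all genes tested. Lox reached the filter on low values only through band input and Tie2 TRAP libraries, Thbs1 only through band and Tie2 TRAP libraries and Tnc only through band libraries, so the count after banding is not read as support. With no filter on low values 5 of the 10 were called after banding, and Postn (limma adjusted p = 0.0671), Tnc (0.0811), Lox (0.0601) and Thbs4 (0.103) were not.

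Fbn1 and Postn had the lowest ratios of mean RPKM, TRAP over input, after banding. Fbn1 was read at 1.70 and 1.11 RPKM in band TRAP and 4.23 and 3.66 RPKM in band input libraries, a ratio of 0.355 and a fall of 1.05 on the log2(RPKM + 1) scale (SE 0.13, limma adjusted p = 0.0014). After sham surgery it was read at 0.922 and 1.00 RPKM in TRAP libraries and at 2.34 and 2.38 RPKM in input libraries, a ratio of 0.408 (limma adjusted p = 0.0049). Fbn1 thus stood lower in TRAP RNA by a similar factor in both conditions. Postn had a ratio of 0.359 after banding (limma adjusted p = 0.0145) and of 0.620 after sham surgery (limma adjusted p = 0.286). Without band input library 1 (adjusted p = 0.0547) or band input library 2 (adjusted p = 0.0859) its call after banding was lost.

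Sparc had the narrowest spread of the 10 genes, with TRAP over input ratios of 0.572 after banding (limma adjusted p = 0.000454) and 0.627 after sham surgery (limma adjusted p = 0.00102). Fn1 had a ratio of 0.491 after banding (limma adjusted p = 0.00284) and 0.595 after sham surgery (limma adjusted p = 0.0194), and Thbs2 of 0.505 after banding (limma adjusted p = 0.0127) and 0.439 after sham surgery (limma adjusted p = 0.00366). These 3 genes, like Fbn1, were called in both conditions. The ratio of Thbs1 was 0.533 after banding (limma adjusted p = 0.0142) and 0.343 after sham surgery (limma adjusted p = 0.327), and that of Tnc was 0.485 after banding (limma adjusted p = 0.0299) and 0.390 after sham surgery (limma adjusted p = 0.650). For Thbs1 and Tnc the lower ratio is thus in the condition that was not called, where both genes were near the floor of the log2(RPKM + 1) scale. Lox had a ratio of 0.418 after banding (limma adjusted p = 0.0204), and its TRAP and input libraries overlapped after sham surgery. Thbs3, at 0.561 after banding and 0.564 after sham surgery, did not pass in either condition (limma adjusted p = 0.0626 and 0.0837).

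Thbs4 stood on the other side, with TRAP over input ratios of 1.38 after banding and 1.24 after sham surgery. Both TRAP libraries were above both input libraries in each condition. The rise after banding was 0.37 (SE 0.12, limma adjusted p = 0.0468) and the difference after sham surgery was 0.22 (SE 0.12, limma adjusted p = 0.191). Among the fits that leave out 1 library, the call after banding held only without band TRAP library 2 (adjusted p = 0.00448), and without band TRAP library 1 the adjusted p was 0.122. It was also lost when values were rescaled without the 50 most abundant genes (difference 0.25, limma adjusted p = 0.122), while quantile normalization called Thbs4 higher in both conditions (limma adjusted p = 0.00687 after banding and 0.0192 after sham surgery).

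Without band TRAP library 1, the 8 falls after banding were called and the rise of Thbs4 was not. Without band TRAP library 2, the falls of Lox (adjusted p = 0.0588) and Tnc (adjusted p = 0.0998) were not called. The falls of Thbs1 (adjusted p = 0.0609 and 0.0681) and Lox (adjusted p = 0.106 and 0.063) were lost without band input library 1 or 2, and that of Thbs2 without band input library 1 (adjusted p = 0.0758). The fall of Tnc was also lost without band input library 1 (adjusted p = 0.159) or any 1 of the sham libraries (adjusted p = 0.0537 to 0.0543). After sham surgery the fall of Fn1 was lost without any 1 of the sham libraries (adjusted p = 0.0633 to 0.110), while those of Thbs2, Sparc and Fbn1 were called in each of the 8 fits.

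Transcript length moved with these values. The transcripts of the 10 genes run from 2300 bases for Sparc to 11971 bases for Fbn1. With each library's trend over length removed, 5 of the 10 were called after banding: Fbn1 (-0.42), Postn (-0.95), Sparc (-0.73) and Lox (-0.36) lower and Thbs4 (0.54) higher. After sham surgery the calls were then Thbs2 (-0.41) and Sparc (-0.61) lower and Thbs4 (0.39) higher, and Fn1 stood at 0.05 and Fbn1 at -0.10. Markers of several cell types differed between the fractions as well, where 26.0% of all genes were called lower after banding and 24.5% after sham surgery. Of the fibroblast markers 8 of 10 were called lower in TRAP than in input RNA after banding and 9 of 10 after sham surgery, and of the macrophage and leukocyte markers 7 of 7 and 6 of 7. Smooth muscle markers were called lower for 5 of 7 in each condition, and all 4 epicardial and all 4 erythroid markers were called lower in both. Of the 7 endothelial markers limma called 0 in either condition, and of the 6 heart muscle markers 2 were higher and 2 lower after banding and 1 was higher and 2 lower after sham surgery. Fibroblast markers summed to 173 and 113 RPKM in band TRAP and 320 and 291 RPKM in band input libraries, and to 153 and 163 RPKM in sham TRAP and 343 and 340 RPKM in sham input libraries. No marker of the fibroblast list was at 0 in any library. The part of cell make-up in the TRAP to input differences was not tested.

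Whether banding changed the TRAP to input ratio itself was tested as an interaction. Limma called 0 of the 10 genes (adjusted p of 0.992 or more for each) and 0 of 11654 genes, or 0.00%. At an unadjusted p under 0.05 there were 0 of the 10 and 557 of all genes, and limma voom on the recovered reads also called 0 of the 10. The interval of the interaction was -0.37 to 0.11 for Sparc and -1.71 to 0.16 for Postn, and the Postn interval thus spans differences of over 1. For Thbs1 the interaction was -0.38 on the log2(RPKM + 1) scale and 0.57 with limma voom, and for Tnc -0.46 and 0.31. With a pseudocount of 0.1 it was -0.05 for Thbs1 and -0.39 for Tnc. On the RPKM scale the TRAP over input ratio of Thbs1 was 0.533 after banding and 0.343 after sham surgery, and that of Tnc 0.485 and 0.390. The direction of these 2 interactions thus depends on the scale, and the cause of the change of sign was not tested. Without band TRAP library 1, 1 of the 10 was called, Postn at -1.25 (limma adjusted p = 0.0305).

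The third set of libraries came from hearts without surgery and has 1 library on each side, so its differences are given with no p-value and no check by replicates. All 10 genes were higher in Tie2 TRAP than in Tie2 input RNA, and 9 of the 10, all but Thbs4, were lower in CAG TRAP than in CAG input RNA. Of all 11654 genes, 66.2% were higher in Tie2 TRAP than in Tie2 input RNA and 68.4% were lower in CAG TRAP than in CAG input RNA. The median difference of the 10 genes was 0.62 in Tie2 and -0.53 in CAG RNA, against 0.48 and -0.26 over all genes. Of the 8 groups analysed here, Tie2 TRAP held the highest mean level of 7 genes, as it did for 56.4% of all genes. The 7 were Thbs1, Thbs2, Thbs3, Postn, Sparc, Fn1 and Fbn1. For 8 of the 10, all but Thbs4 and Lox, TRAP lay below input RNA with no overlap in each of the 3 CAG conditions and above it in Tie2 hearts, a pattern held by 24.8% of all genes. Past a difference of 1 on the log2(RPKM + 1) scale, 4 of the 10 were higher in Tie2 TRAP than in Tie2 input RNA, where 31.5% of all genes were, and 0 were lower, where 13.1% were. In CAG RNA without surgery 0 of the 10 were past 1 higher, where 0.961% of all genes were, and 1 was past 1 lower, Postn, where 7.53% of all genes were.

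The 4 genes past 1 in Tie2 RNA were Thbs1, Postn, Sparc and Fn1. Thbs1 was read at 2.94 RPKM in Tie2 TRAP and 0.582 RPKM in Tie2 input RNA, against 0.142 RPKM in CAG TRAP and 0.624 RPKM in CAG input RNA. Fn1 was read at 18.9 RPKM in Tie2 TRAP and 4.80 RPKM in Tie2 input RNA, against 1.34 RPKM in CAG TRAP and 2.66 RPKM in CAG input RNA. Each of them was thus high in the Tie2 pulldown and low in the CAG pulldown relative to its own input. Sparc reached 1254 RPKM in Tie2 TRAP and 458 RPKM in Tie2 input RNA, and Postn 10.2 RPKM in Tie2 TRAP and 2.18 RPKM in Tie2 input RNA. Fbn1, at 5.63 RPKM in Tie2 TRAP and 3.37 RPKM in Tie2 input RNA, and Thbs2, at 3.24 RPKM in Tie2 TRAP and 1.95 RPKM in Tie2 input RNA, differed less, by 0.60 and 0.52. Thbs3 stood at 3.21 RPKM in Tie2 TRAP and 1.94 RPKM in Tie2 input RNA. It reached 1 RPKM only in these libraries and in CAG input RNA without surgery. Without the Tie2 libraries, where Thbs3 was highest, it would not pass the filter, so its part in the Tie2 counts is not read as support.

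**Figure D4:**
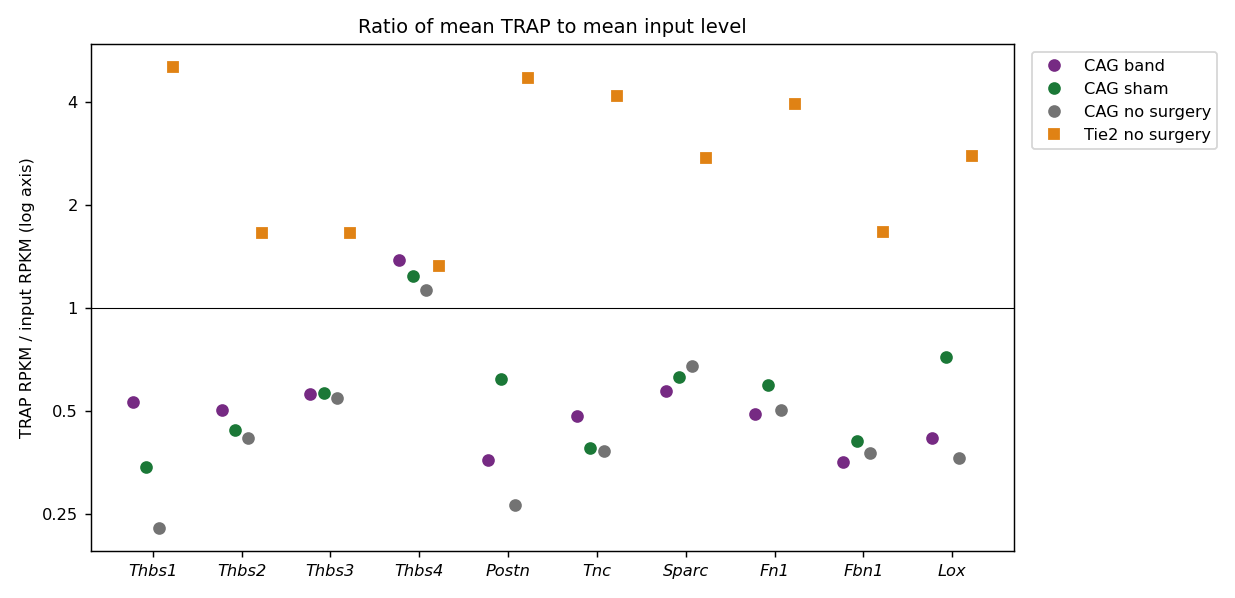
Ratio of mean RPKM, TRAP over input, for each of the 10 genes in CAG band, CAG sham, CAG without surgery and Tie2 without surgery, on a log axis with a line at 1. In Tie2 hearts all 10 ratios are above 1, and in the 3 CAG conditions Thbs4 alone is above 1, at 1.13 to 1.38; with quantile normalization Thbs1, Thbs3, Tnc and Lox after sham surgery and Thbs3 after banding also stood higher in TRAP RNA, and with the trend over transcript length removed Thbs1, Tnc, Fn1 and Lox did after sham surgery.

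Between the TRAP libraries, Tie2 TRAP exceeded CAG TRAP RNA by more than 1 on the log2(RPKM + 1) scale for 8 of the 10 genes, where 44.4% of all genes did, and 0 of the 10 were lower by more than 1, where 11.3% were. Fn1 differed by 3.09, Sparc by 2.72 and Postn by 2.59. Lox had the largest ratio of RPKM, at 1.26 RPKM in Tie2 TRAP against 0.0307 RPKM in CAG TRAP RNA, which rests on 13 reads (95% Poisson interval 0.0163 to 0.0524 RPKM). Thbs4 went the other way, at 4.73 RPKM in Tie2 TRAP and 6.63 RPKM in CAG TRAP RNA, a difference of -0.41. Markers of several lineages differed too. Endothelial markers summed to 12056 RPKM in Tie2 TRAP and 1309 RPKM in Tie2 input RNA, of which Fabp4 made up 10760 and 1219 RPKM. Macrophage and leukocyte markers summed to 2632 RPKM in Tie2 TRAP and 331 RPKM in Tie2 input RNA, and fibroblast markers to 891 RPKM in Tie2 TRAP and 346 RPKM in Tie2 input RNA. Heart muscle markers summed to 2495 RPKM in Tie2 TRAP and 34811 RPKM in Tie2 input RNA. Also lower in Tie2 TRAP than in Tie2 input RNA were the sums of smooth muscle and pericyte markers (175 against 318 RPKM), epicardial markers (16.5 against 19.3 RPKM) and erythroid markers (551 against 2445 RPKM). Within the first list Pdgfrb (12.7 against 11.3 RPKM) and Rgs5 (35.2 against 31.7 RPKM) went the other way. Among the epicardial markers Wt1 (4.74 against 0.405 RPKM) and Krt19 (4.97 against 4.15 RPKM) did so. Pf4, on the platelet and megakaryocyte list, was read at 427.9 RPKM in Tie2 TRAP and 57.98 RPKM in Tie2 input RNA. The other markers of that list were low in Tie2 TRAP RNA, from 0.0470 RPKM (Gp5) to 1.98 RPKM (Itga2b). Which of these cells the matricellular transcripts came from was not tested.

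The order of the groups by level differed between genes. Neighbours were called apart where their libraries, with 95% Poisson intervals, did not overlap. This is a description and not a test, since replicates spread well beyond counting error: their chi-square per gene, about 1 under counting error alone, was 93.3 for the band TRAP pair and 13.1 to 19.2 for the other pairs. Tnc and Lox were highest in band input RNA; for Lox the next group, Tie2 TRAP, overlapped it, and for Tnc the next, band TRAP, was apart. Thbs4 was highest in CAG TRAP RNA without surgery, and the first 6 groups of its order overlapped each from one neighbour to the next, down to a gap between Tie2 input and sham TRAP RNA. For Thbs3 the 6 CAG groups likewise overlapped in a chain below Tie2 TRAP and Tie2 input RNA. Sparc, the most deeply read of the 10, was apart at every step, though steps between groups of 1 library have no replicate spread.

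Other genes of the same families and pathway were counted on lists made with results of these data known. Of 17 relatives (other thrombospondin, tenascin, Sparc, fibrillin, periostin and lysyl oxidase family genes) 11 were tested. In band against sham input RNA 3 rose and 0 fell, where 2.44% of all genes were called higher and 1.65% lower. The 3 were Tgfbi, the relative of Postn, by 0.69 (limma adjusted p = 0.0119), Fstl1 by 0.63 (limma adjusted p = 0.0401) and the crosslinking enzyme Loxl1 by 0.55 (limma adjusted p = 0.0217). In TRAP RNA limma called 0 of the 11, where 2.21% of all genes were called higher and 1.56% lower. In TRAP against input RNA 8 of the 11 fell after banding, where 26.0% of all genes did, and 9 after sham surgery, where 24.5% did, led by Fstl1 (-1.65 after banding and -1.24 after sham surgery).

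Of 21 receptors and binding partners 15 were tested. Itga5, the integrin subunit that pairs with Itgb1 as a fibronectin receptor, was read at 14.8 and 13.0 RPKM in band input and 7.88 and 7.53 RPKM in sham input libraries, and rose by 0.77 (limma adjusted p = 0.0182). It also rose in TRAP RNA, by 0.83 (limma adjusted p = 0.014), where it was the only gene of the list called. Sdc4, a heparan sulfate proteoglycan that binds fibronectin, rose in input RNA by 0.57 (limma adjusted p = 0.0161). The list thus had 2 rises in input RNA and 1 in TRAP RNA, where 2.44% and 2.21% of all genes were called higher. In band against sham 0 of its genes fell, where 1.65% of all genes did in input RNA and 1.56% in TRAP RNA. In TRAP against input RNA 6 of the 15 fell in each condition, against 26.0% of all genes after banding and 24.5% after sham surgery, led by Lrp1, an endocytic receptor for thrombospondins (-1.38 after banding and -1.37 after sham surgery), and Stab1, a scavenger receptor known to take up Sparc (-1.17 after banding and -0.97 after sham surgery).

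Of 26 genes of collagens, elastic fibres and their assembly 25 were tested. In band against sham input RNA 3 rose and 2 fell, where 2.44% of all genes were called higher and 1.65% lower. Fbln1, a fibulin that binds fibronectin, was read at 13.8 and 13.6 RPKM in band input and 24.1 and 26.2 RPKM in sham input libraries, and fell by 0.83 (limma adjusted p = 0.00901). Mfap5, a microfibril protein, rose by 0.83 (limma adjusted p = 0.0156), and Efemp2, also called fibulin 4, which guides Lox in elastic fibre assembly, rose by 0.62 (limma adjusted p = 0.0269). In TRAP RNA Fbln1 fell by 0.68 (limma adjusted p = 0.0155), Ltbp4 fell by 0.38 (limma adjusted p = 0.0482) and Efemp2 rose by 0.65 (limma adjusted p = 0.0244), the 3 calls of the list. Of all genes, 2.21% were called higher and 1.56% lower there. In TRAP against input RNA 17 of the 25 fell after banding, against 26.0% of all genes, and 18 after sham surgery, against 24.5%, and 0 rose. The collagens Col1a1 (-1.84 after banding and -1.62 after sham surgery), Col3a1 (-1.48 after banding and -1.39 after sham surgery) and Col1a2 (-1.42 after banding and -1.25 after sham surgery) led the list. These 3 collagens are also on the fibroblast marker list.

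Of 13 TGF-beta ligands, receptors and responders 12 were tested. The ligand Tgfb2 was read at 3.16 and 2.86 RPKM in band input and at 1.33 and 1.15 RPKM in sham input libraries, and rose by 0.84 (limma adjusted p = 0.0214). In TRAP RNA it was read at 3.02 and 2.21 RPKM after banding and at 1.02 and 1.26 RPKM after sham surgery, and rose by 0.75 (limma adjusted p = 0.0341). Band and sham libraries did not overlap for Tgfb2 in either fraction. In band against sham 0 genes of the list fell, where 1.65% of all genes did in input RNA and 1.56% in TRAP RNA. In TRAP against input RNA after sham surgery 5 of the 12 fell, against 24.5% of all genes, led by Ski, a repressor of TGF-beta signalling (-0.59), and the ligand Tgfb3 (-0.55), and 0 rose. For each of the 4 lists limma called 0 genes in the interaction.

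The genes most like each of the 10 in their level over the 12 libraries were named by the Pearson r of log2(RPKM + 1), as a description. These libraries are not independent points, since TRAP and input share hearts or lines and the Tie2 TRAP library stands apart. Nearest to Thbs1 were Inhba (r = 0.98) and Myc (r = 0.97), and nearest to Tnc were the chemokine genes Ccl7 (r = 0.97) and Ccl2 (r = 0.95). Postn was nearest to 9030418K01Rik and Cd44 (r = 0.97 each), and Lox to Gm5506 (r = 0.97) and S100a8 (r = 0.93). Sparc was nearest to Stab1 and Inpp5b, Fn1 to G530011O06Rik and Trmt2a, and Thbs3 to Ddit4 and Per1, each at r = 0.99. Thbs2 was nearest to Dpep1 (r = 0.98) and Cnot4 (r = 0.96), and Fbn1 to Lrrc59 and Lcp1 (r = 0.98 each). Thbs4 had the least close neighbours, Il18bp (r = 0.88) and Zfp932 (r = 0.86).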

How the data were processed

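RPKM values for 34306 genes in 12 libraries were deposited by the authors, with 0 columns of other samples; 1 transcript identifier and its length in bases stand beside each gene. CASAVA 1.8.2, TopHat 1.4, HTSeq 0.5.3 and the build NCBIM37 are named in the submitters' processing notes. Libraries were made with poly(A) selection and random hexamers and do not mark strand, per the labels' protocols. Columns carry a condition and a number and were taken as the later of 2 deposits (24 of the 53 samples), whose titles end in l1 or l2, a suffix that is not explained in the sources used here; some column names alone would also match the first deposit, which was not analysed here.

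RPKM times length came out as whole reads, within 0.02 reads, for 233410 of 233410 positive values, and these recovered reads gave library totals and Poisson intervals (95%). Limma 3.58.1 in R 4.3.3 was fitted to log2(RPKM + 1) of the 11654 genes that reached 1 RPKM in 2 or more libraries, with 1 mean per group, a variance trend, 4 residual degrees of freedom and a prior of 3.02, and was tested on simulated data. Tests are two-sided. The genes, the lists, the comparisons and the rules for naming genes (all 10 genes, the 2 most alike, and up to 3 called genes per list) were chosen with earlier results of these data known. Alternatives were another pseudocount, other filters, scalings and libraries, a replicate block, a length correction and limma voom. Of the genes on these lists, 1 is not reported here.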

Additional observations from a re-analysis of the deposited data

Results flagged for a closer look

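For 8 of the 10 genes, TRAP libraries lay below input libraries with no overlap in CAG hearts after banding, after sham surgery and without surgery, whereas Tie2 TRAP lay above Tie2 input RNA, a pattern held by 24.8% of all 11654 genes tested; with quantile normalization Thbs1, Thbs3 and Tnc after sham surgery, and Thbs3 after banding, stood higher in TRAP RNA in CAG hearts too, as Thbs1, Tnc and Fn1 did after sham surgery with the trend over transcript length removed. The log2(RPKM + 1) differences, Tie2 TRAP minus Tie2 input, were 1.82 for Postn, 1.78 for Fn1, 1.45 for Sparc, 1.32 for Thbs1, 0.60 for Fbn1, 0.55 for Tnc, 0.52 for Thbs2 and 0.52 for Thbs3. The difference between the lines was not tested, since Tie2 hearts gave 1 library of each fraction. Thbs3 passed the filter on low values only with the Tie2 libraries, so its part in this pattern is not read as support. Endothelial, macrophage and fibroblast markers also had higher sums in Tie2 TRAP than in Tie2 input RNA. Smooth muscle and pericyte, epicardial, erythroid and heart muscle markers had lower sums, although Pdgfrb, Rgs5, Wt1 and Krt19 on these lists were higher. The part of these cells in these values was not tested.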

How the results depend on the processing

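Of the 10 genes, 9 were called in TRAP against input after banding, 4 after sham surgery, 4 in band against sham input RNA, 2 in TRAP RNA and 0 in the interaction. After banding this count was 5 with a pseudocount of 0.1, with no filter on low values and with the length trend removed, and 3 with a filter of 5 RPKM, which left Thbs4, Postn and Sparc to test and gave 1 in each of the sham, input and TRAP comparisons; all genes called after banding were then 3284, against 4964. In band against sham input RNA the count was 8 with quantile normalization and with the length trend removed, and 2 with no filter. In TRAP RNA it was 0 with no filter, where all genes called were 207, against 439. All genes called in the interaction were 2 with a pseudocount of 0.1 and 2 with no filter, against 0.

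With the replicate block, 2 of the 10 genes and 273 of all genes were called in band against sham input RNA, against 4 and 476, and 2 of the 10 and 259 of all genes in TRAP RNA, against 2 and 439. Thbs4 lost its calls in input RNA (adjusted p = 0.0905), in TRAP RNA (0.0581) and in TRAP against input after banding (0.0724), and Fn1 that in input RNA (0.0501), while Tnc was called in TRAP RNA (0.048). The cause was not tested. Deviations of same-numbered libraries from their group means correlated at -0.43 to 0.11. Between TRAP and input RNA of the same condition the values were -0.17 (sham) and 0.03 (band). The 2 libraries of a group deviate by equal and opposite amounts, and their numbers need not match between groups. This check thus cannot show whether libraries were paired.

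Quantile normalization turned the TRAP minus input difference of Thbs3 to 0.0451 after banding, of Thbs1 to 0.10, Thbs3 to 0.0434, Tnc to 0.14 and Lox to 0.17 after sham surgery, and the interaction of Thbs3 to 0.0017. Removal of the length trend turned Thbs1 to 0.16, Tnc to 0.31, Fn1 to 0.0504 and Lox to 0.12 after sham surgery. Limma voom, added after seeing the data, turned the interaction to 0.57 for Thbs1, 0.0542 for Thbs3 and 0.31 for Tnc. The causes were not tested. The median of all genes in TRAP against input after banding was -0.10, and it was 0.05 with quantile normalization and -0.21 when scaled with the 50 most abundant genes left out; of all genes, 1938 were called higher and 3026 lower, against 2544 and 1955 with quantile normalization, 2352 and 1816 with the length trend removed and 1336 and 4135 with the rescaling. After sham surgery 1763 were called higher and 2852 lower, against 2053 and 1851, 1799 and 1517, and 1187 and 3938.

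Leaving out each library gave 3 to 8 of the 10 genes and 2779 to 6269 of all genes in TRAP against input after banding, 3 to 5 and 1917 to 6388 after sham surgery, 0 to 8 and 26 to 1511 in band against sham input RNA, 0 to 6 and 33 to 1971 in TRAP RNA, and 0 to 1 and 0 to 197 in the interaction; the lone library is then assumed to vary like the other groups. Over these fits the difference ran from -0.0080 to 0.15 for Thbs3 in band against sham input RNA and from -0.10 to 0.84 for Postn in TRAP RNA, and the interaction from -0.10 to 0.0545 for Thbs3 and from -0.0182 to 0.32 for Thbs4.

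Without surgery, 4 of the 10 genes were past 1 in CAG TRAP against input with a pseudocount of 0.1 and 0 with quantile normalization, against 1; 2 were in Tie2 TRAP against input with the rescaling, against 4; and 5 were in Tie2 TRAP against CAG TRAP with quantile normalization, against 8. The planned edgeR fit was not run, since the deposited values are not counts. Thbs1, Tnc and Lox rest on 10 to 30 reads in several sham or unoperated libraries, which limits the precision of their ratios.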
